A study of Mus musculus with 4 samples.

Results

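Keratins and the other intermediate filaments were examined in mouse heart ventricle through 7 genes: the simple epithelial keratins Krt18, Krt8 and Krt19, the muscle filament protein Des, the mesenchymal filament protein Vim, and the nuclear lamins Lmna and Lmnb1. Members were all probe sets that the platform annotation assigns to exactly 1 of these symbols, dim ones included. This gave 10 probe sets of 12422 that were not array controls, and 7 genes of 8251 with a probe set of their own. The family was chosen by the signals of these same 4 arrays, since it was put together when the high Krt18 signal of the transgenic samples was already known. The differences between the groups are therefore given for the members as a description and not as a test.

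The arrays compared 2 ventricle samples from mice with a transgene for moderate overexpression of serum response factor (SRF) in the heart with 2 from non-transgenic mice, which the series' design calls wild-type. The age was 6 months. SRF is a transcription factor that binds a DNA element known as the CArG box in genes of muscle and the cytoskeleton. The labels name neither the strain, nor the promoter of the transgene, nor how many animals gave each sample, and Srf itself is not analysed here. Standard errors and p-values therefore reflect variation among these 4 arrays alone, which may be technical, and so few arrays limit their precision.

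Intermediate filaments are rope-like polymers that give cells mechanical strength. Keratins form them only as pairs of an acidic type I chain, such as Krt18 or Krt19, with a basic type II chain, such as Krt8, and are typical of epithelia. In adult cardiomyocytes the main cytoplasmic filament is desmin, which ties the Z-discs to each other, to the intercalated disc and to the nucleus, while vimentin belongs to fibroblasts, endothelium and other mesenchymal cells, and lamins line the inner nuclear membrane.

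Signals are the deposited linear intensities, 1 value per probe set and array, in arbitrary units. Probe sets of different genes hybridise with different strength, so signals were compared between arrays and not between genes. Median signals were 49.0 and 50.6 on the transgenic arrays and 53.8 and 52.3 on the non-transgenic arrays. Pearson's r of log2 signals, taken across probe sets that are not independent replicates, was 0.981 within the transgenic group, 0.973 within the non-transgenic group and 0.961 to 0.964 across groups. The cardiomyocyte markers Myh6, Myl2, Tnni3 and Tnnt2 were bright on every array (Myh6 read 8729.7 and 7950.4 in transgenic ventricle and 10497.1 and 10715.6 in non-transgenic ventricle), which fits the tissue label. Not every marker probe set was bright. One for Mb read 0.9 and 7.6 in transgenic ventricle and 14.4 and 6.7 in non-transgenic ventricle. Summed over all 15 probe sets, cardiomyocyte markers reached 89513.1 and 90839.5 in transgenic ventricle and 112175.0 and 109217.5 in non-transgenic ventricle.

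Krt18 was the member with the widest separation between the groups. Its brighter probe set gave signals of 309.3 and 269.4 in transgenic ventricle, against 33.0 and 22.9 in non-transgenic ventricle. Both transgenic arrays were high and both non-transgenic arrays were low, with no overlap. Mean signals of 289.4 ± 28.2 and 28.0 ± 7.14 (SD, n = 2 each) stood in a ratio of 10.4. On the scale used for the fit, log2(signal + 9), the difference was 3.02 ± 0.20 (moderated standard error), which corresponds to an 8.13-fold difference because the added constant compresses low signals. The non-transgenic mean lay below 31.9, the lowest mean over the 4 arrays that passed the filter on dim signals, so Krt18 was tested through its transgenic values. Among the 7452 probe sets that passed this was the 2nd highest difference. The difference ranged from 2.83 to 3.22 when 1 of the 4 arrays was left out.

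A second Krt18 probe set, for which the annotation lists another source sequence, was close to the lowest signals of the arrays. It read 4.6 and 3.0 in transgenic ventricle and 9.5 and 3.5 in non-transgenic ventricle. Its groups overlapped, and its log2 difference was -0.25 ± 0.25 in the fit without the filter. The high Krt18 values came from 1 of its 2 probe sets.

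Krt8, the type II partner of Krt18, was measured by 1 probe set, which read 39.4 and 38.9 in transgenic ventricle and 13.9 and 27.6 in non-transgenic ventricle. Both transgenic arrays lay above both non-transgenic arrays. The means were 39.2 ± 0.354 and 20.8 ± 9.69 (SD, n = 2 each), a ratio of 1.89, and most of the spread came from the 2 non-transgenic arrays. With a mean of 29.95 over the 4 arrays, Krt8 lay just below the lowest mean that the filter passed, 31.9, so it was not tested. In the fit without the filter its log2 difference was 0.73 ± 0.33, and it was not called there.

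Krt19, a type I keratin of ductal and glandular epithelia, was dim on all arrays. Its brighter probe set gave 20.9 and 28.7 in transgenic ventricle and 17.2 and 35.6 in non-transgenic ventricle, and the transgenic values lay between the non-transgenic ones. The dimmer probe set stayed between 1.5 and 2.7 on all 4 arrays. Their log2 differences, from the fit without the filter, were -0.03 ± 0.37 and -0.09 ± 0.15. A difference in Krt19 was not detectable at these signals.

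**Figure D1:**
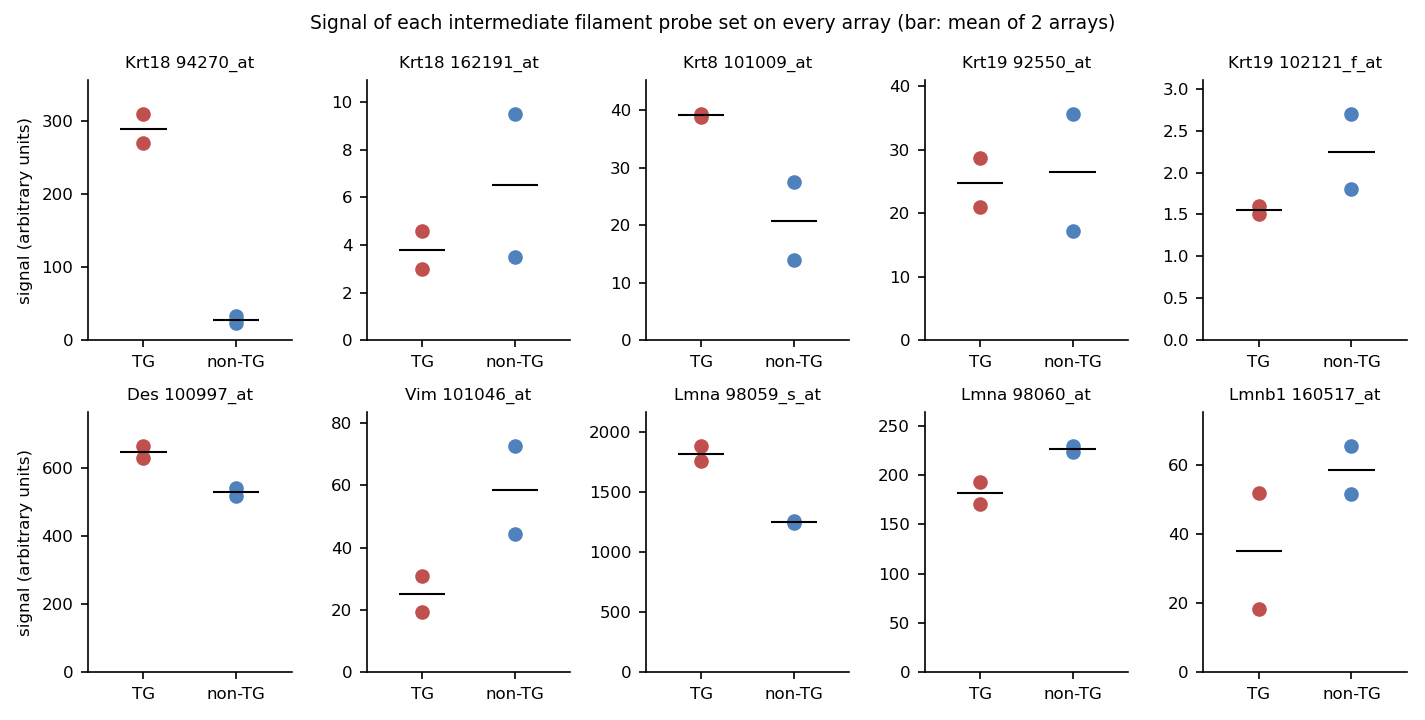
Signal of each of the 10 probe sets (y axes, arbitrary units, linear and starting at 0, a separate scale for each panel) on the 2 transgenic (TG) and 2 non-transgenic (non-TG) ventricle arrays, with bars at the mean of each group. The brighter Krt18 probe set lay at 309.3 and 269.4 in TG and at 33.0 and 22.9 in non-TG, while its second probe set and both Krt19 probe sets were dim in both groups.

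Krt8 and Krt18 are neighbours on mouse chromosome 15. In RefSeq (GRCm38.p6) their starts lie 23.9 kb apart on opposite strands, with 0 protein-coding genes starting between them. Their promoters are shown as a description of these neighbouring partner genes. The difference in Krt8 was not tested, and whether SRF acts on either gene was not tested. Each window covers 150 bases before the annotated start and 30 bases from it, 5′ to 3′ on the gene's strand, and capitals mark the letters TATAA. The Krt18 window is chr15:102028066-102028245 (+ strand) and the Krt8 window is chr15:102004313-102004492 (- strand).
Krt18: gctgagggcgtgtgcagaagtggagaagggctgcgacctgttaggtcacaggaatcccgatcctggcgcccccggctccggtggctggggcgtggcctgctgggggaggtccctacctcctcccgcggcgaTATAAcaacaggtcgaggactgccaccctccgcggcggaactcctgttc
Krt8: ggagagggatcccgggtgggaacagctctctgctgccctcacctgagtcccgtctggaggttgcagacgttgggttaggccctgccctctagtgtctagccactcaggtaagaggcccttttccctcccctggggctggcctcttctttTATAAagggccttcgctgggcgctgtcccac

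The letters TATAA began 19 bases before the annotated start of Krt18 and 1 base before that of Krt8. Over both strands and the whole window of 300 bases that RefSeq's promoter table gives for each start (250 before it and 50 from it), TATAA was found in 24.9% of 32851 promoters. In Krt8 and in Vim, where it began 32 bases before the start, a second match on the other strand overlapped the first. The CArG box was searched in its strict form on both strands and was found in 1.63% of the promoters. None of the 6 starts that the table holds for Krt18, Krt8, Des, Vim and Lmna had a match in this window. The letters GGGCGG, a GC box found in 35.7% of promoters, occurred at 2 positions for Des and at 1 for the upstream Lmna start, and TGACTCA, an AP-1 element found in 5.20%, occurred at 1 position for that Lmna start. These searches cover the stated letters in the stated windows only.

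Des, the desmin gene, read 663.0 and 628.9 in transgenic ventricle and 540.8 and 517.3 in non-transgenic ventricle. The transgenic arrays were both higher, but the step was small. Means of 646 ± 24.1 and 529 ± 16.6 (SD, n = 2 each) gave a ratio of 1.22, and the log2 difference was 0.28 ± 0.10. It ranged from 0.25 to 0.32 when an array was left out.

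Vim showed the opposite order. Its signal was 19.5 and 30.8 in transgenic ventricle and 72.5 and 44.4 in non-transgenic ventricle. Both transgenic arrays lay below both non-transgenic arrays, and below the lowest mean that the filter passed. Vim thus passed the filter only through its non-transgenic values. The means were 25.2 ± 7.99 and 58.5 ± 19.9 (SD, n = 2 each), and the log2 difference of -0.97 ± 0.32 ranged from -1.27 to -0.67 when an array was left out.

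Lmna encodes lamins A and C, which are splice forms of 1 gene, and its 2 probe sets went in opposite directions although the annotation gives both the same source sequence. The brighter probe set read 1754.5 and 1878.7 in transgenic ventricle and 1238.5 and 1259.0 in non-transgenic ventricle. Its means of 1817 ± 87.8 and 1249 ± 14.5 (SD, n = 2 each) gave a log2 difference of 0.54 ± 0.08. The dimmer probe set read 170.9 and 192.8 in transgenic ventricle and 229.2 and 223.7 in non-transgenic ventricle, a log2 difference of -0.31 ± 0.13. Neither probe set had overlapping groups. The ratio of the brighter to the dimmer Lmna probe set was 10.3 and 9.74 on the transgenic arrays and 5.40 and 5.63 on the non-transgenic arrays. Which transcript each probe set reads was not analysed here, so these values do not settle a direction for the gene.

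Lmnb1, a B-type lamin expressed in most nucleated cells, read 18.3 and 52.1 in transgenic ventricle and 65.6 and 51.8 in non-transgenic ventricle. The groups overlapped, and transgenic replicate 1 was the low array. The log2 difference was -0.72 ± 0.39, with values of -0.14 without transgenic replicate 1 and -1.30 without transgenic replicate 2.

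**Figure D2:**
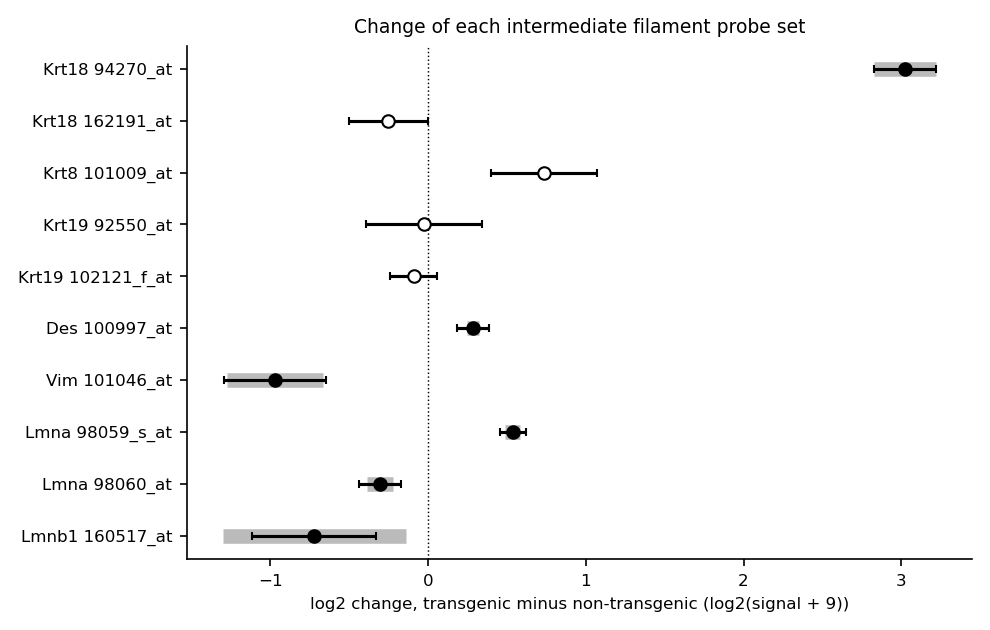
Log2 difference of each probe set (x axis, log2(signal + 9), transgenic minus non-transgenic) with its moderated standard error; filled points passed the filter on dim signals, open points come from the fit without it, and grey bands span the values of the 4 fits that each left out 1 array. The brighter Krt18 probe set stood at 3.02, the 2 Lmna probe sets lay on opposite sides of 0 at 0.54 and -0.31, and the Lmnb1 band ran from -1.30 to -0.14.

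Of the 10 probe sets 6 passed the filter, covering 5 genes, and Krt8 and Krt19 did not. In limma's fit over all 7452 probe sets tested, 2 of the 6 were called higher in transgenic ventricle at an adjusted p threshold of 0.05 (the brighter probe sets of Krt18 and Lmna), and 0 were called lower. At an unadjusted p below that threshold Des was higher and Vim lower in addition. Over all tested probe sets 8.33% were called, 4.19% higher and 4.15% lower, and 24.4% had an unadjusted p below the threshold, 11.8% higher and 12.5% lower. Centring each array on its median moved the share of higher among called probe sets to 65.6%, against 50.2% as deposited, with the same 2 members called. In 5 of the 6, every transgenic array lay on 1 side of every non-transgenic array, as in 56.1% of all tested probe sets. Because the members were chosen with this contrast known, nothing is read from these shares. The Lmna call ended without limma's trend of variance on signal, and both calls ended in an ordinary two-sample test, which called 0 of the 7452 probe sets (1190 had an unadjusted p below 0.05).

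The probe sets whose profile over the 4 arrays was most like that of the brighter Krt18 probe set were those of Anxa10, Bex1, Myl1, Nppa and Ccn2. Likeness was the root mean square difference of the mean-centred log2 values over the 4 arrays, and it ran from 0.18 for Anxa10 to 0.48 for Ccn2. Anxa10, a member of the annexin family of calcium-dependent membrane-binding proteins, read 97.8 and 61.5 in transgenic ventricle and 3.1 and 2.0 in non-transgenic ventricle. Bex1 read 154.5 and 166.1 in transgenic ventricle and 11.8 and 20.2 in non-transgenic ventricle. The non-transgenic values of Anxa10 and Bex1 lay below 31.9, the lowest mean that the filter passed. Both genes thus passed the filter only through their transgenic values. With 4 arrays in 2 groups, such a profile mostly restates the size of the difference between the groups.

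Other keratins did not pass the test. Of 48 further keratin genes listed, 30 had a probe set (45 probe sets), and 31 of these 45 were too dim to be tested. Of the 14 tested, 0 were called in either direction in limma, and 0 without the trend of variance or in the ordinary test; at an unadjusted p below 0.05, 3 of the 14 were lower and 0 higher, against 24.4% of all tested probe sets in either direction. The smallest p belonged to the hair keratin Krt36, with 137.5 and 91.7 in transgenic ventricle and 169.6 and 213.6 in non-transgenic ventricle (log2 difference -0.72 ± 0.22, adjusted p = 0.0995 in limma). Krt36 was called lower when transgenic replicate 1 was left out. The 2 tested probe sets of Krt33b, another hair keratin, had log2 differences of -0.46 and -0.72 (adjusted p = 0.159 and 0.179). The one at -0.72 read 31.2 and 20.4 in transgenic ventricle and 48.0 and 47.3 in non-transgenic ventricle. Both of its transgenic values lay below the lowest mean that the filter passed, so it was tested only through its non-transgenic values. The median log2 difference of the 14 was -0.20, against -0.01 over all tested probe sets. Krt7, a type II keratin of simple epithelia like Krt8, stayed between 4.2 and 6.5 on all arrays.

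Of 14 other intermediate filament genes listed 9 were measured, and 3 of their 13 probe sets were tested. None was called in limma (0 also at an unadjusted p below 0.05, and 0 with the trend of variance left out or in the ordinary test). Nes, the gene of nestin, a filament protein of progenitor and regenerating cells, read 272.5 and 345.0 in transgenic ventricle and 344.5 and 302.7 in non-transgenic ventricle. The second B-type lamin, Lmnb2, read 22.4 and 31.7 in transgenic ventricle and 39.6 and 48.2 in non-transgenic ventricle (log2 difference -0.56 ± 0.29, adjusted p = 0.279 in limma). Both transgenic values lay below the lowest mean that the filter passed, so Lmnb2 was tested only through its non-transgenic values. Gfap, the astrocyte filament gene, had a log2 difference of -0.11 ± 0.36.

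Genes that anchor filaments at the desmosome included 2 that fell, and neither was called without the filter. Of 20 listed 14 were measured, and of 11 tested probe sets 0 rose, 2 fell and 9 did not pass. At an unadjusted p below 0.05 in limma, 1 was higher and 5 were lower. For comparison, 4.19% of all tested probe sets were called higher and 4.15% lower, and 11.84% and 12.55% were so at an unadjusted p below 0.05. The desmosomal cadherin Dsc2 read 29.1 and 27.8 in transgenic ventricle and 65.1 and 73.2 in non-transgenic ventricle (log2 difference -1.06 ± 0.23, adjusted p = 0.0365 in limma). Both transgenic values lay below the lowest mean that the filter passed, so Dsc2 was tested only through its non-transgenic values, and its adjusted p was 0.0955 without the filter. Its partner cadherin Dsg2 read 69.9 and 107.9 in transgenic ventricle and 174.2 and 173.3 in non-transgenic ventricle (-0.93 ± 0.21, adjusted p = 0.0418, and 0.0973 without the filter). Plakoglobin, Jup, which binds their tails, read 1129.7 and 1049.2 against 1408.4 and 1313.1 in non-transgenic ventricle (-0.32 ± 0.09, adjusted p = 0.0826). Desmoplakin, Dsp, which joins desmin to the desmosome, read 2738.4 and 2726.6 in transgenic ventricle and 2972.6 and 3223.2 in non-transgenic ventricle (-0.18, adjusted p = 0.187). The cytolinker plectin, Plec, had a log2 difference of 0.29 (adjusted p = 0.412), and the list's median was 0.02. The 2 calls were fragile: Dsc2 lost its call when any 1 of the 4 arrays was left out (adjusted p up to 0.117), and Dsg2 lost it in 3 of those 4 fits (adjusted p up to 0.137), all but the one without transgenic replicate 2.

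**Figure D3:**
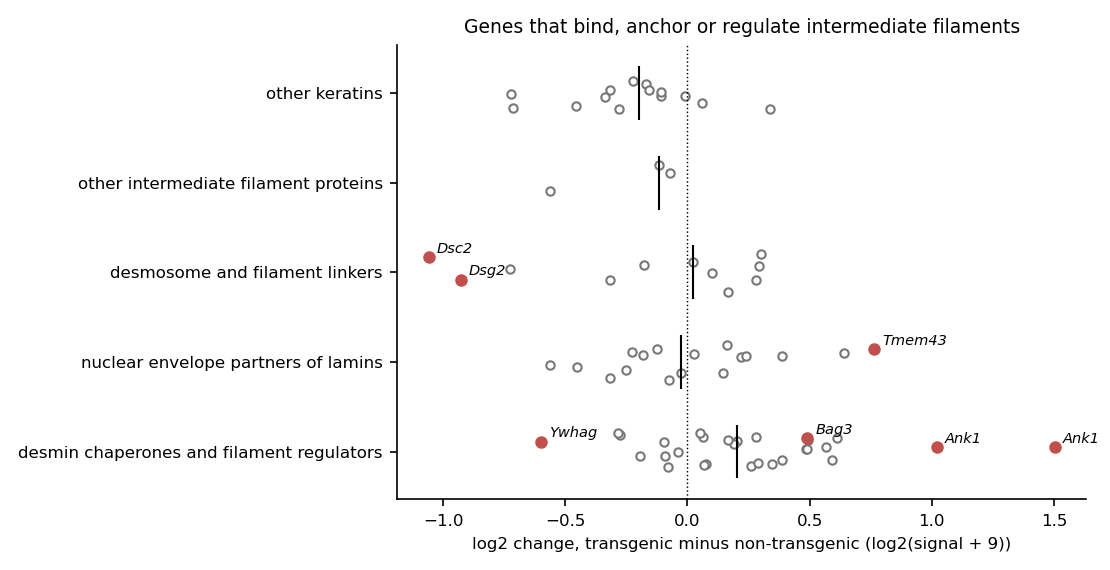
Log2 differences (x axis, log2(signal + 9), transgenic minus non-transgenic) of all tested probe sets in 5 lists of filament genes and filament partners; filled, named points passed the adjusted p threshold of limma and vertical bars are list medians. The other keratins had 0 called, Dsc2 and Dsg2 fell, Tmem43 rose, and 2 of the 3 Ank1 probe sets rose.

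Nuclear envelope genes that work with lamins had 1 member called. Of 24 listed 15 were measured, and of 17 tested probe sets 1 rose, 0 fell (1 at an unadjusted p below 0.05) and 16 did not pass. Among all tested probe sets 4.19% were called higher and 4.15% lower, so 1 call is near the general share. Tmem43, a protein of the inner nuclear membrane that binds lamins and emerin, read 300.2 and 268.1 in transgenic ventricle and 162.7 and 164.3 in non-transgenic ventricle (log2 difference 0.76 ± 0.13, adjusted p = 0.0181 in limma). Without transgenic replicate 1 its call ended (adjusted p = 0.0918). Emerin, Emd, read 299.9 and 299.7 against 316.1 and 317.4 in non-transgenic ventricle. Sun2, which links lamins to the cytoskeleton, had a log2 difference of -0.25 ± 0.10 (adjusted p = 0.188), and Fnta, a subunit of the enzyme that farnesylates prelamin A and B-type lamins, had -0.23 ± 0.10 (adjusted p = 0.222). The list's median was -0.03.

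Among chaperones of desmin and regulators of filaments, 3 of 29 tested probe sets rose, 1 fell and 25 did not pass. Of 27 listed genes 22 were measured, and the median was 0.20. At an unadjusted p below 0.05 in limma, 11 were higher and 1 lower. Shares over all tested probe sets were 4.19% called higher and 4.15% lower, and 11.84% and 12.55% at an unadjusted p below 0.05. Ank1, the adaptor ankyrin 1, supplied 2 of the rises, with 735.0 and 819.1 in transgenic ventricle and 325.8 and 438.5 in non-transgenic ventricle in one of its probe sets (log2 difference 1.02 ± 0.15, adjusted p = 0.0125). Another gave 1966.0 and 1675.9 in transgenic ventricle and 484.1 and 830.9 in non-transgenic ventricle, a ratio of means of 2.77 (adjusted p = 0.0127). The third Ank1 probe set had a log2 difference of 0.05 (adjusted p = 0.780). Bag3, a co-chaperone of Z-disc protein turnover, read 1330.4 and 1137.1 in transgenic ventricle and 923.6 and 824.2 in non-transgenic ventricle in 1 probe set (0.49 ± 0.11, adjusted p = 0.0429). It was not called in limma without the filter (adjusted p = 0.0872) or after quantile normalization of the arrays (adjusted p = 0.0527). A second Bag3 probe set gave -0.19 (adjusted p = 0.515), and the call of the first ended without any 1 array except transgenic replicate 2 (adjusted p up to 0.184). The fall was that of Ywhag, a 14-3-3 adaptor, in 1 probe set, with 1963.7 and 2057.3 against 3340.0 and 2786.2 in non-transgenic ventricle (-0.60 ± 0.10, adjusted p = 0.0158). A dimmer Ywhag probe set that was also tested overlapped between the groups and gave -0.10 (adjusted p = 0.8475 in limma). Cryab, the alpha-B crystallin that chaperones desmin, had a log2 difference of 0.20 (adjusted p = 0.177) in its brighter probe set. Its other probe set was too dim to be tested and went the other way. That one read 2.6 and 4.3 in transgenic ventricle and 7.0 and 15.9 in non-transgenic ventricle. Rises numbered 6 when arrays were centred on their medians, with Hspb2 (2 probe sets) and Ywhah added.

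Markers of cell types that carry these filaments were set beside the member values. In bulk tissue, more cells of a type and more RNA per cell cannot be told apart. Beside the counts below, 4.19% of all tested probe sets were called higher and 4.15% lower. Of 21 markers of simple epithelium and mesothelium, the usual sources of Krt8, Krt18 and Krt19, 17 were measured by 18 probe sets, of which 14 were too dim to be tested. Of the 4 tested, 0 were called (1, Cldn3, was lower at an unadjusted p below 0.05, and 0 were called without the trend of variance or in the ordinary test). This Cldn3 probe set read 13.3 and 21.2 in transgenic ventricle and 44.7 and 48.6 in non-transgenic ventricle. Both transgenic values lay below the lowest mean that the filter passed, so it was tested only through its non-transgenic values. Another Cldn3 probe set was too dim to be tested, and its groups overlapped. The summed signal of the list was 487.1 and 509.4 in transgenic ventricle and 621.9 and 487.6 in non-transgenic ventricle. The epithelial adhesion gene Epcam stayed between 3.0 and 6.1, and the mesothelial gene Msln read 21.4 and 12.0 in transgenic ventricle and 21.5 and 9.2 in non-transgenic ventricle. The sums overlapped between the groups, and the part of epithelial or mesothelial cells in the Krt18 values was not tested.

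Hepatocytes also carry Krt8 and Krt18 filaments, and their markers moved the other way. Of 16 tested hepatocyte probe sets 13 were lower and 0 higher in transgenic ventricle (0 higher also at an unadjusted p below 0.05). In 10 of the 13 both transgenic arrays lay below the lowest mean that the filter passed, so these were tested only through their non-transgenic values. Without the filter 12 of all 22 were lower, without the trend of variance 8 of 16, and in the ordinary test 0. The summed signal was 485.0 and 598.3 in transgenic ventricle and 4099.3 and 7707.3 in non-transgenic ventricle, and Alb, the albumin gene, read 50.3 and 35.7 against 855.5 and 1737.5. The liver-type signal was thus highest on the arrays with the lowest Krt18, and its part in the keratin values was not tested.

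Cardiomyocytes, which carry desmin, had markers that were lower. Of 14 tested probe sets 7 fell and 0 rose (12 and 0 at an unadjusted p below 0.05), with 0 called without the trend of variance or in the ordinary test and 3 lower without the filter. Their sums, given above, were lower in transgenic ventricle, where Des read 663.0 and 628.9 against 540.8 and 517.3 in non-transgenic ventricle, and their part in the Des values was not tested.

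Cells that carry vimentin had markers that were higher or little different. Fibroblast markers rose in 12 of 23 tested probe sets with 0 lower (1 at an unadjusted p below 0.05), and their summed signal was 16903.1 and 16506.5 in transgenic ventricle and 10659.2 and 10592.4 in non-transgenic ventricle. Macrophage markers rose in 5 of 12 with 0 lower (0 also at an unadjusted p below 0.05), with sums of 4244.2 and 4294.8 against 2561.9 and 2880.7. Without the trend of variance 5 fibroblast and 0 macrophage probe sets were higher, and in the ordinary test 0 of either. Endothelial markers rose in 1 of 14 (Eng) and fell in 1 (Tie1), both calls ending without the trend of variance, with sums of 4815.7 and 4806.1 against 4699.5 and 4600.6. Among smooth muscle and pericyte markers 1 of 9, Acta2, rose. The Vim probe set, at 19.5 and 30.8 in transgenic ventricle, did not follow the fibroblast and macrophage sums, whose part in its values was not tested.

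**Figure D4:**
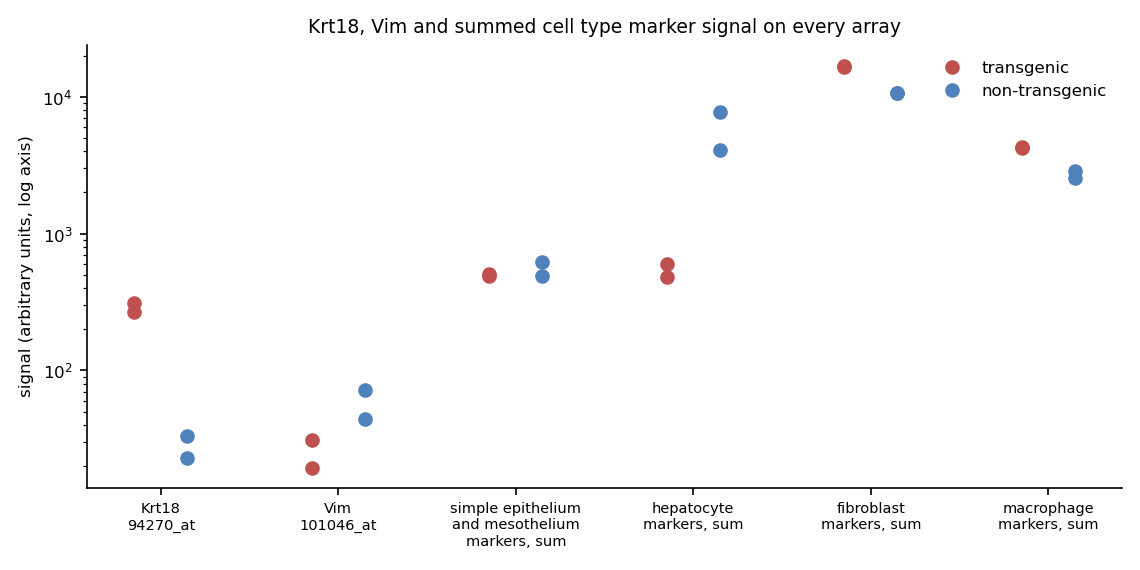
Signal of the brighter Krt18 probe set and of Vim, and summed signal of 4 marker lists (y axis, arbitrary units, log scale) on the 2 transgenic and 2 non-transgenic arrays; columns are to be compared between groups, not with each other. Krt18 was high in transgenic ventricle while the epithelial sum overlapped between groups, the hepatocyte sum was lower, and Vim was lower beside higher fibroblast and macrophage sums.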

How the data were processed

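Total RNA of the ventricle was given a biotin label following Affymetrix's protocol, per the labels. The authors deposited 1 signal intensity per probe set and array; its software is not given in the sources used here. The trimmed mean of an array (2% removed at each end) lay between 150.0 and 150.3 on all 4, so a common scaling is likely. Of 12488 probe sets 66 were controls and were left out. Genes were named through the platform annotation, with 10833 probe sets assigned to 1 symbol and 396 to several.

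Signals were transformed to log2(signal + 9), the lowest 40% by mean signal over all arrays were left out (7452 remained), and groups, taken from the sample titles, were compared with lmFit and eBayes with a variance trend in limma 3.58.1 under R 4.3.3. The p-values are two-sided and adjusted over all tested probe sets by Benjamini-Hochberg, with calls at 0.05. There were 2 residual degrees of freedom, to which the prior added 5.03. The fit was tested on simulated data drawn from its own variance model, so the simulation does not test that model. Members and lists were chosen with earlier results of these data known. Every member was named, with the 5 probe sets nearest in profile to Krt18 and, from each pathway list, those called and the 3 with the smallest p; Dsp, Plec, Emd, Cryab, Krt7, Epcam, Msln, Alb and the other markers were named after their values were seen. Alternatives were other added constants, filters, scalings and variance models, leaving out each array, and a replicate-number block.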

Additional observations from a re-analysis of the deposited data

How the results depend on the processing

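The 6 tested member probe sets kept the sign of their difference in every alternative in which they could be fitted. Krt18 ranged from 2.42 to 3.35 over 14 alternatives and lost its call only in the ordinary test, and the brighter Lmna probe set ranged from 0.49 to 0.62 and lost its call there and without the variance trend. The number of members called higher was 2 as reported, 1 without the variance trend and 0 in the ordinary test. The ordinary test called 0 and 0 in each list, and without the variance trend the desmosome list had 1 lower, the nuclear envelope list 0 higher and the desmin chaperone list 0 higher and 0 lower. Of the desmosome list 0 were lower without the filter and 1 with the lowest 60% left out; leaving out each array gave 0 to 1. Leaving out each array gave 0 to 1 lower for the other keratins and 0 to 1 higher for the nuclear envelope list. The desmin chaperone list had 2 higher without the filter, 6 with the lowest 60% left out and 6 after median centring. Without the filter 172 probe sets were called higher and 157 lower, against 312 and 309 as reported, and without the variance trend 51 and 47. The totals were 126 and 184 without transgenic replicate 1, 195 and 214 without transgenic replicate 2, 246 and 211 without non-transgenic replicate 1, and 256 and 184 without non-transgenic replicate 2. A filter on mean log2 signal, added after seeing the data, gave 303 and 288. Same-numbered arrays did not deviate together (correlation -0.07 over probe sets), and with replicate number as a block (replicate block) the member count stayed at 2 higher and the totals were 347 and 354.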
